A study of Homo sapiens with 30 samples.

Results

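The 10 genes described here report on or carry Wnt and beta-catenin signalling, and were followed through HepG2 cells exposed to sorafenib. They were AXIN2, LGR5, NKD1, TBX3, GLUL, RNF43, ZNRF3, SP5, NOTUM and CTNNB1, and were found in the count table by gene symbol. All 10 were present with at least 1 count, among 60107 genes listed and 25347 genes with a count. Sorafenib is a multikinase inhibitor used in advanced liver cancer, and the study asked how microRNAs (miRNAs) linked to the drug change the messenger RNAs of treated cells. HepG2 is an established human liver tumour line, called hepatocellular carcinoma in the sample labels and hepatoblastoma in the methods. All 30 cultures were transfected with an oligonucleotide and, 24 h later, received 10 µM sorafenib or its solvent dimethyl sulfoxide (DMSO). The cultures lysed after 6 h of treatment had received an inhibitor control (IC) or an inhibitor of miR-200c-3p (I200c). Those lysed after 24 h had received a mimic control (MC) or a mimic, either of miR-222-5p (M222) or of miR-512-3p (M512). Each of the 10 groups held 3 libraries, and no culture was left without a transfection. The time of treatment and the kind of control oligonucleotide differ together and cannot be told apart.

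When a Wnt ligand binds a Frizzled receptor and its LRP partner, a cytoplasmic destruction complex stops degrading beta-catenin, the protein encoded by CTNNB1. Beta-catenin then enters the nucleus and acts with TCF and LEF factors on target genes, many of which encode inhibitors of the same pathway. In liver the pathway is best known for setting the gene programme of hepatocytes around the central vein, and HepG2 carries an activating CTNNB1 deletion that keeps beta-catenin stable.

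Each library held 3938764 to 9657063 counts of 3′ end reads, and levels are given as CPM (counts per 1000000 counts) after trimmed mean of M-values (TMM) scaling over the 30 libraries. The 10 hepatocyte and hepatoblastoma markers summed to 7227 CPM or more in every library, with ALB at 2345 to 5099 CPM and AFP at 705.5 to 3185 CPM. The 3 endothelial markers summed to at most 3.02 CPM, the 4 fibroblast and stellate markers to at most 13.6 CPM and the 3 leukocyte markers to at most 11.1 CPM, with VWF, DCN and CD3E at 0 in all libraries. Of the 4 cholangiocyte markers, KRT19, EPCAM and SOX9 were measured (together with KRT7, 495.6 to 899.9 CPM) and KRT7 stayed at or below 1.39 CPM. The study describes its replicates as independent. The p-values rest on the spread between libraries of the same group, estimated together over all groups of a fit.

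The 3 miRNAs are shown first because the transfections supplied or inhibited them. Their mature sequences from RefSeq (GRCh38.p14) follow with the seed, bases 2 to 8, in capitals. No pair of them shares a seed.
miR-200c-3p: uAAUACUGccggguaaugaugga
miR-222-5p: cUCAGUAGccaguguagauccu
miR-512-3p: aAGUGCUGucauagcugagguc
The letters complementary to the seed are CAGTATT for miR-200c-3p, those for miR-222-5p are CTACTGA, and miR-512-3p has CAGCACT. They were searched on the transcript strand of the 3′ untranslated region of each member's canonical transcript in GENCODE release 44. Of 19538 such regions, 16.1% held the first, 9.21% the second and 19.6% the third. Matches lay in 3 of the 10 members. NKD1, with a region of 15468 bases, held 1, 1 and 4 matches, GLUL, with 6307 bases, held 1, 1 and 3, and LGR5, with 1576 bases, held 1 match to the miR-512-3p seed. The other 7 held none. The matches to the inhibited miRNA, those to miR-222-5p and the single one of LGR5 are printed with the match in capitals, each on the strand of its gene.
NKD1 for miR-200c-3p, chr16:50635082-50635088, plus strand: cttaataaaggCAGTATTtacaaagtgtg
GLUL for miR-200c-3p, chr1:182381414-182381420, minus strand: aggagtcaggcCAGTATTtacaaaaggag
NKD1 for miR-222-5p, chr16:50643657-50643663, plus strand: cgcatactgaaCTACTGAtcctaggggaa
GLUL for miR-222-5p, chr1:182379166-182379172, minus strand: tgcgtacatttCTACTGAaaacaatctga
LGR5 for miR-512-3p, chr12:71585359-71585365, plus strand: gttttatgtatCAGCACTagatggttcca

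The sorafenib comparison asked which of these genes the drug changed in each transfection. AXIN2 was higher with sorafenib in every library, while RNF43 and TBX3 were higher after 6 h and RNF43 was lower after 24 h. In bulk libraries fewer cells expressing a gene and less RNA per cell cannot be told apart. Libraries of compared groups are also described below as overlapping or not. The share of all genes without overlap was not counted, so this describes single genes and is not a test. Genes were called at an adjusted p under 0.05 in the quasi-likelihood test of edgeR, and 9 of the 10 members had enough counts to be tested. The members were chosen with earlier results of these data known, so their counts beside the share of all genes are a description. In I200c, 3 of 9 members (AXIN2, RNF43 and TBX3) rose and none fell, where 2.28% of the 12738 genes tested were called, 0.911% higher and 1.37% lower. In MC, 1 of 9 (AXIN2) rose and none fell, against 2.6% of 13244 genes, 1.8% higher and 0.793% lower. In M222, AXIN2 rose and RNF43 fell, against 4.38% of genes, 2.82% higher and 1.56% lower. In M512, AXIN2 rose while RNF43 and GLUL fell, against 9.96% of genes, 5.34% higher and 4.62% lower. In IC, none of the 9 was called by edgeR, 3 had an unadjusted p under 0.05 and DESeq2 called 2. Here edgeR called 0.0393% of all genes, 0.0314% higher and 0.00785% lower, and DESeq2 called 35 of the 12738, 23 higher and 12 lower. Under scaling by total counts, all genes together had a median log2 fold change of -0.12 (MC), -0.14 (M222) and -0.22 (M512). Higher genes then made up 50.1%, 47.9% and 29.9% of calls, against 69.5%, 64.3% and 53.6% with TMM. TBX3 in MC, uncalled at 0.09, was at -0.02 under total counts, and no called member changed sign. The median log2 fold change of the 9 members was -0.11 in IC, -0.01 in I200c, 0.32 in MC, 0.17 in M222 and -0.11 in M512, where the median of all genes lay between -0.03 and 0.0046.

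**Figure D1:**
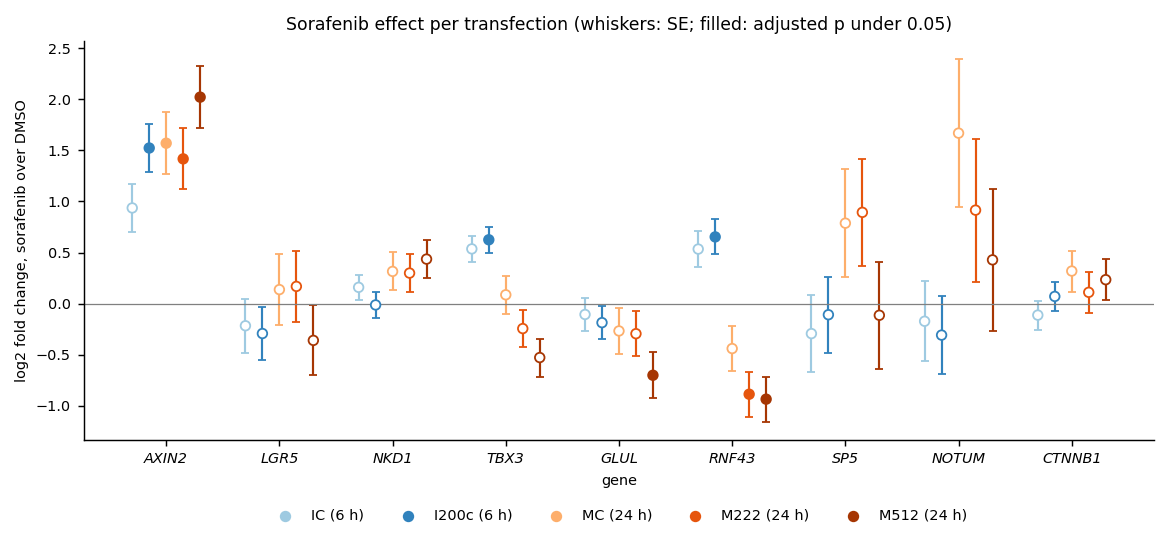
Log2 fold change of sorafenib over DMSO (vertical axis) for the 9 members tested (horizontal axis) in each of the 5 transfections, with the SE as whiskers and filled symbols where the edgeR adjusted p was under 0.05. AXIN2 lies above 0 in all 5, from 0.94 in IC to 2.02 in M512, and RNF43 changes side between the 6 h (blue) and the 24 h (orange) transfections.

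AXIN2 encodes a scaffold of the destruction complex and is the target most often used as a readout of the pathway (chromosome 17, 65528563 to 65561648 on GRCh38, minus strand). In the 15 DMSO libraries its level ran from 43.5 to 108 CPM with a median of 69.2 CPM, and in the 15 sorafenib libraries from 138 to 329 CPM with a median of 180 CPM (179.6 before rounding). The mean was 1.93 times the DMSO mean in IC, 2.89 times in I200c, 2.95 times in MC, 2.67 times in M222 and 4.14 times in M512. The lowest sorafenib library lay above the highest DMSO library, across both times and all 5 transfections. In IC the DMSO libraries held 78.4, 108 and 43.5 CPM and the sorafenib libraries 158, 138 and 148 CPM, and in I200c the values were 59.4, 55.3 and 81.3 CPM against 184, 216 and 165 CPM. At 24 h, MC went from 69.2, 86.2 and 49.6 CPM to 284, 141 and 179.6 CPM. M222 went from 80.1, 108 and 64.3 CPM to 294, 160.5 and 221 CPM, and M512 from 56.7, 78.5 and 59.4 CPM to 329, 311 and 166 CPM. The spread between sorafenib libraries was wider at 24 h, with SDs of 66.7 to 89.8 CPM against 9.96 and 25.5 CPM at 6 h.

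On the log2 scale AXIN2 rose by 1.52 in I200c (SE 0.232, adjusted p = 0.000921), by 1.57 in MC (SE 0.301, adjusted p = 0.00386), by 1.42 in M222 (SE 0.299, adjusted p = 0.00654) and by 2.02 in M512 (SE 0.304, adjusted p = 0.000101), all from edgeR. In IC its log2 fold change was 0.94 (SE 0.232, edgeR adjusted p = 0.242) and it was not called, although the groups did not overlap. That result turned on the setting: without IC_DMSO replicate 2 it was called (log2 fold change 1.27, adjusted p = 0.0277), as it was by DESeq2 (0.94, adjusted p = 0.0325) and without the filter on low counts (0.95, adjusted p = 7.7e-05), while without IC_DMSO replicate 3 it was 0.67 (adjusted p = 1). In M222 the call was lost without M222_DMSO replicate 3 (1.30, adjusted p = 0.0534) and without M222_sorafenib replicate 1 (1.22, adjusted p = 0.0525). In I200c, MC and M512 the call held in each of the 6 fits that left out 1 library. The sorafenib effect on AXIN2 was not shown to differ between the times (difference of the mean log2 fold changes at 24 h and 6 h 0.44, SE 0.259, adjusted p = 0.314).

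**Figure D2:**
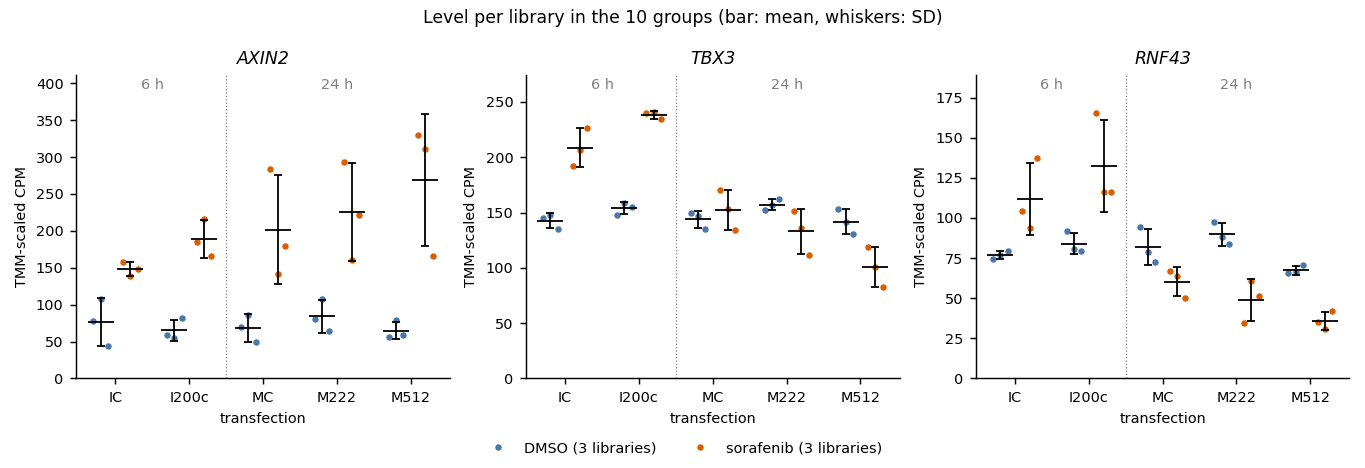
Level of AXIN2, TBX3 and RNF43 in TMM-scaled CPM (vertical axes, from 0) in each library, with DMSO in blue and sorafenib in orange for each transfection, and the mean and SD over 3 libraries as black bars. AXIN2 is higher in all sorafenib libraries, and TBX3 and RNF43 are higher with sorafenib at 6 h and RNF43 lower at 24 h.

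NKD1 encodes a cytoplasmic inhibitor that binds Dishevelled and, like AXIN2, is a feedback target (chromosome 16, 50548396 to 50649249, plus strand). In DMSO it held 391, 395 and 415 CPM in IC and 462, 399.6 and 402 CPM in I200c. It held 213, 305 and 279.5 CPM in MC and 241, 207 and 266 CPM in M512, and M222 lay above both at 328, 442 and 408 CPM. The 24 h controls MC were thus below the 6 h controls IC in every DMSO library. That difference was not called by edgeR (log2 fold change -0.57, SE 0.154, adjusted p = 0.0891), while DESeq2 called it (-0.57, adjusted p = 0.0175), as did edgeR without MC_DMSO replicate 2 (-0.70, adjusted p = 0.032) and without the filter on low counts (-0.58, adjusted p = 0.0279). With sorafenib NKD1 held 434, 451 and 465 CPM in IC, 405, 401 and 451 CPM in I200c, 296, 396 and 298 CPM in MC, 509, 432 and 513 CPM in M222, and 312, 357 and 321 CPM in M512. The sorafenib libraries were all above the DMSO libraries in IC and M512 and overlapped them in the other transfections. No sorafenib comparison called NKD1, and the log2 fold change furthest from 0 was 0.44 in M512 (SE 0.185, edgeR adjusted p = 0.143). A transcript on the same strand, ENSG00000278909, overlaps NKD1 outside its last exon and held 6908 counts against 73726.

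RNF43 and ZNRF3 encode membrane ubiquitin ligases that remove Frizzled receptors from the cell surface. RNF43 (chromosome 17, 58353676 to 58417595, minus strand) went in opposite directions at the 2 times. At 6 h its DMSO libraries held 74.2, 76.7 and 79.4 CPM in IC and 91.6, 80.9 and 79.5 CPM in I200c, and its sorafenib libraries held 104, 94.0 and 137 CPM in IC and 165, 116 and 116 CPM in I200c. At 24 h DMSO gave 94.3, 78.9 and 72.5 CPM in MC, 97.4, 88.3 and 83.5 CPM in M222 and 65.6, 66.0 and 70.5 CPM in M512. Sorafenib gave 67.1, 63.6 and 50.1 CPM in MC, 34.4, 60.5 and 51.5 CPM in M222 and 34.9, 30.8 and 42.1 CPM in M512. The libraries of the compared groups did not overlap in any of the 5 transfections, with sorafenib above DMSO at 6 h and below it at 24 h. How many of all genes did the same was not counted.

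By edgeR RNF43 rose in I200c (log2 fold change 0.65, SE 0.171, adjusted p = 0.0476) and fell in M222 (-0.89, SE 0.219, adjusted p = 0.0188) and in M512 (-0.93, SE 0.22, adjusted p = 0.00721). It was not called in IC (0.53, SE 0.174, adjusted p = 0.679) or MC (-0.44, SE 0.217, adjusted p = 0.306). The I200c call was lost in 5 of the 6 fits that left out 1 library, those without any I200c_DMSO replicate or without I200c_sorafenib replicate 1 or 2, with adjusted p up to 0.235. It was also lost with total counts (0.62, adjusted p = 0.0631). The M222 call was lost in 4 of the 6, without M222_DMSO replicate 1 or 3 or M222_sorafenib replicate 1 or 3, with adjusted p up to 0.175. The M512 call held in all 6. The direct test of the difference between the mean sorafenib effect at 24 h and at 6 h, in a fit of all 30 libraries added after the values were seen, gave -1.34 for RNF43 (SE 0.179, edgeR adjusted p = 4.94e-06), where 9.4% of the 13800 genes tested were called, 5.34% higher and 4.06% lower. With total counts 38% of the calls in this comparison were higher, against 56.8% with TMM, and RNF43 was at -1.45 where the median of all genes was -0.14. RNF43 stayed called in each of the 30 fits that left out 1 library. Between the 2 transfection controls alone, MC against IC, the same difference was -1.003 (SE 0.254, edgeR adjusted p = 0.108). It was not called there, where 0.216% of 12500 genes were, and DESeq2 called it (-0.99, adjusted p = 0.0249), among 259 genes called.

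ZNRF3 (chromosome 22, 28883572 to 29057488, plus strand) gave 16 counts in all. They lay in 3 libraries, 4 counts in I200c_sorafenib replicate 3 (0.478 CPM), 4 in MC_sorafenib replicate 2 (0.798 CPM) and 8 in M222_DMSO replicate 1 (0.871 CPM). The other 27 libraries held 0, which allows up to 0.304 to 0.732 CPM at 3 counts, on the same TMM scale, and ZNRF3 was not tested. At this depth no difference between groups was detectable.

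LGR5 encodes a receptor for R-spondins, the secreted proteins that clear RNF43 and ZNRF3 from the membrane, and marks stem cells and central vein hepatocytes (chromosome 12, 71439798 to 71586310, plus strand). In DMSO it held 25.2, 16.3 and 29.3 CPM in IC, 26.5, 17.2 and 36.6 CPM in I200c, 11.9, 19.9 and 13.9 CPM in MC, 20.03, 14.7 and 13.0 CPM in M222 and 16.9, 16.0 and 27.9 CPM in M512. With sorafenib the 15 libraries held 8.93 to 24.0 CPM with a median of 19.1 CPM. The groups overlapped in every transfection and in every step of their order by mean level. Its log2 fold changes with sorafenib ran from -0.36 in M512 (SE 0.342, edgeR adjusted p = 0.571) to 0.17 in M222, and none was called. An overlapping transcript on the same strand, ENSG00000277223, held 1362 counts over the 30 libraries against 3910 for LGR5, outside its last exon.

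NOTUM encodes a secreted enzyme that removes the lipid from Wnt ligands (chromosome 17, 81952507 to 81961840, minus strand). It was the most variable member, with an SD of 50.5% of the mean in the median group and up to 114% in M222_DMSO. In DMSO its libraries held 124, 60.8 and 177 CPM in IC, 111, 128 and 222.4 CPM in I200c, 46.6, 39.5 and 5.87 CPM in MC, 216, 29.0 and 34.5 CPM in M222 and 78.6, 55.2 and 102 CPM in M512. In sorafenib they held 48.4, 111 and 162 CPM in IC, 88.2, 92.2 and 194 CPM in I200c, 56.0, 65.4 and 172 CPM in MC, 242, 170.5 and 118 CPM in M222 and 98.0, 16.0 and 207 CPM in M512. Sorafenib libraries were above all DMSO libraries in MC and overlapped them elsewhere. The log2 fold change in MC of 1.67 (SE 0.726, edgeR adjusted p = 0.234) was the furthest from 0 of the 9 members in that transfection and was not called. It was 1.00 without MC_sorafenib replicate 3 and 1.17 without MC_DMSO replicate 3. In M222 it was 0.92 (SE 0.699, adjusted p = 0.518), 2.47 without M222_DMSO replicate 1, 0.53 without M222_DMSO replicate 2 and 0.55 without M222_DMSO replicate 3. Without the filter on low counts, with 23336 genes tested in place of 13244, the SE in MC was 0.242. NOTUM was then called in MC (edgeR adjusted p = 2.44e-09), with the log2 fold change at 1.67. It was also called in M222 (0.92, SE 0.233, adjusted p = 0.00451). Of the 23336 genes, 684 were called in MC and 861 in M222. The NOTUM libraries were the same in both fits, so these smaller SEs do not mean that the libraries lay closer together.

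SP5 encodes a zinc finger factor that is a direct beta-catenin target (chromosome 2, 170715337 to 170718078, plus strand). Of the 4 members with a RefSeq promoter (6 windows, 300 bases each, GRCh38.p14), SP5 was the sole carrier of the core letters of the TCF and LEF motif, CTTTGA, searched on both strands (TCAAAG on the other). It held 3 non-overlapping matches, starting 147, 109 and 83 bases before the start of transcription, while 12.9% of 35116 promoters held at least 1. The window is printed as the sole one with a match, and the matches are in capitals. NOTUM had no window, and whether these matches act in HepG2 was not tested.
SP5, chr2:170715087-170715386, plus strand: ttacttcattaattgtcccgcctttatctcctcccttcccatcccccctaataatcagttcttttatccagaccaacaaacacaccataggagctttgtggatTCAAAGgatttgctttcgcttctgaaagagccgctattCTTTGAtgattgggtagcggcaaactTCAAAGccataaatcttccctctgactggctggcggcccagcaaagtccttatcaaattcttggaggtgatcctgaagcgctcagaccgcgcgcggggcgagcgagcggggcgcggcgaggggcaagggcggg
No match was found in the windows of GLUL, RNF43 and CTNNB1.

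In DMSO, SP5 held 199, 74.9 and 270.1 CPM in IC, 198, 168 and 299.9 CPM in I200c, 131, 101 and 39.9 CPM in MC, 301, 83.6 and 82.7 CPM in M222 and 278, 198 and 402 CPM in M512. In sorafenib it held 87.8, 150.03 and 208 CPM in IC, 146, 145 and 330.2 CPM in I200c, 112, 123 and 237 CPM in MC, 410.1, 297 and 163 CPM in M222 and 278, 73.0 and 474 CPM in M512. The groups overlapped in all 5 transfections. Its log2 fold changes with sorafenib, -0.29, -0.11, 0.79, 0.89 and -0.11 in IC, I200c, MC, M222 and M512, were all uncalled (edgeR adjusted p at least 0.375), and the SEs were 0.371 to 0.53. Without the filter on low counts edgeR called SP5 in MC (adjusted p = 0.0174, SE 0.22) and in M222 (adjusted p = 0.00264, SE 0.219). As for NOTUM, these smaller SEs came from the same libraries.

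TBX3 encodes a T-box factor raised by beta-catenin in liver tumours (chromosome 12, 114670255 to 114684175, minus strand). Its DMSO libraries were close to each other, at 131 to 162 CPM in all 15. At 6 h sorafenib gave 192, 207 and 227 CPM in IC and 239.9, 241 and 234 CPM in I200c, above every DMSO library of the series. At 24 h sorafenib gave 170.1, 153 and 134 CPM in MC, 151.6, 136 and 112 CPM in M222 and 119, 100.4 and 82.3 CPM in M512. In M222 and M512 these were below the 3 DMSO libraries of the same transfection (152.3, 157 and 162 CPM, and 153, 142 and 131 CPM), and in MC the groups overlapped. TBX3 rose in I200c (log2 fold change 0.63, SE 0.129, edgeR adjusted p = 0.0122), a call lost without I200c_sorafenib replicate 2 (0.62, adjusted p = 0.052). The values were 0.54 in IC (SE 0.13, adjusted p = 0.214), 0.09 in MC (SE 0.185, adjusted p = 0.865), -0.24 in M222 (SE 0.185, adjusted p = 0.515) and -0.53 in M512 (SE 0.186, adjusted p = 0.0716), none called by edgeR. DESeq2 called IC (0.54, adjusted p = 0.0155) and M512 (-0.52, adjusted p = 0.0406), where it called 35 of 12738 and 1820 of 13244 genes. In M512 the call was also made without M512_sorafenib replicate 1 (-0.66, adjusted p = 0.0496) and with total counts (-0.73, adjusted p = 0.0106), where the median of all genes was -0.22. The mean sorafenib effect at 24 h minus that at 6 h was -0.81 (SE 0.139, edgeR adjusted p = 0.000216), called in each of the 30 fits that left out 1 library. Between the controls alone it was -0.48 (SE 0.2, adjusted p = 0.298).

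GLUL encodes glutamine synthetase, the classical marker of hepatocytes next to the central vein (chromosome 1, 182378098 to 182392206, minus strand). In M512 the DMSO libraries held 132, 126 and 154 CPM and the sorafenib libraries 87.7, 95.9 and 75.5 CPM, with no overlap. In M222 the values were 203, 108 and 113 CPM against 146, 102 and 98.1 CPM, in MC 128, 95.4 and 117 CPM against 91.8, 91.7 and 98.7 CPM, and at 6 h all 12 libraries lay between 76.5 and 111 CPM. GLUL fell in M512 (log2 fold change -0.70, SE 0.223, edgeR adjusted p = 0.0463). Each of the 6 fits that left out 1 M512 library lost that call, with log2 fold changes of -0.76 to -0.58 and adjusted p of 0.0608 to 0.194, and the size factors of DESeq2 in edgeR lost it too (-0.69, adjusted p = 0.0538). Its log2 fold changes in the other transfections, -0.11 in IC, -0.19 in I200c, -0.27 in MC and -0.29 in M222, were not called.

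CTNNB1 itself (chromosome 3, 41194741 to 41260096, plus strand) ran from 196 to 395 CPM over the 30 libraries, with an SD of 8.46% of the mean in the median group. In MC it held 217, 254.5 and 196 CPM with DMSO and 255.1, 273 and 303 CPM with sorafenib, and in M222 254, 257 and 231 CPM against 271, 274 and 259 CPM. On the TMM scale the sorafenib libraries of these 2 transfections were above the DMSO libraries and those of the other 3 overlapped them. In MC the nearest libraries were 255.1 and 254.5 CPM. With CPM of total counts both transfections overlapped, at 208 to 267 CPM against 243 to 295 CPM in MC. In M222 the total-count levels were 235 to 267 CPM with DMSO and 239 to 265 CPM with sorafenib. Its log2 fold changes were -0.11, 0.07, 0.32, 0.11 and 0.23 in IC, I200c, MC, M222 and M512 with SEs of 0.142 to 0.2, and none was called. The messenger level of CTNNB1 says nothing of the amount of beta-catenin protein, which was not measured here.

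**Figure D3:**
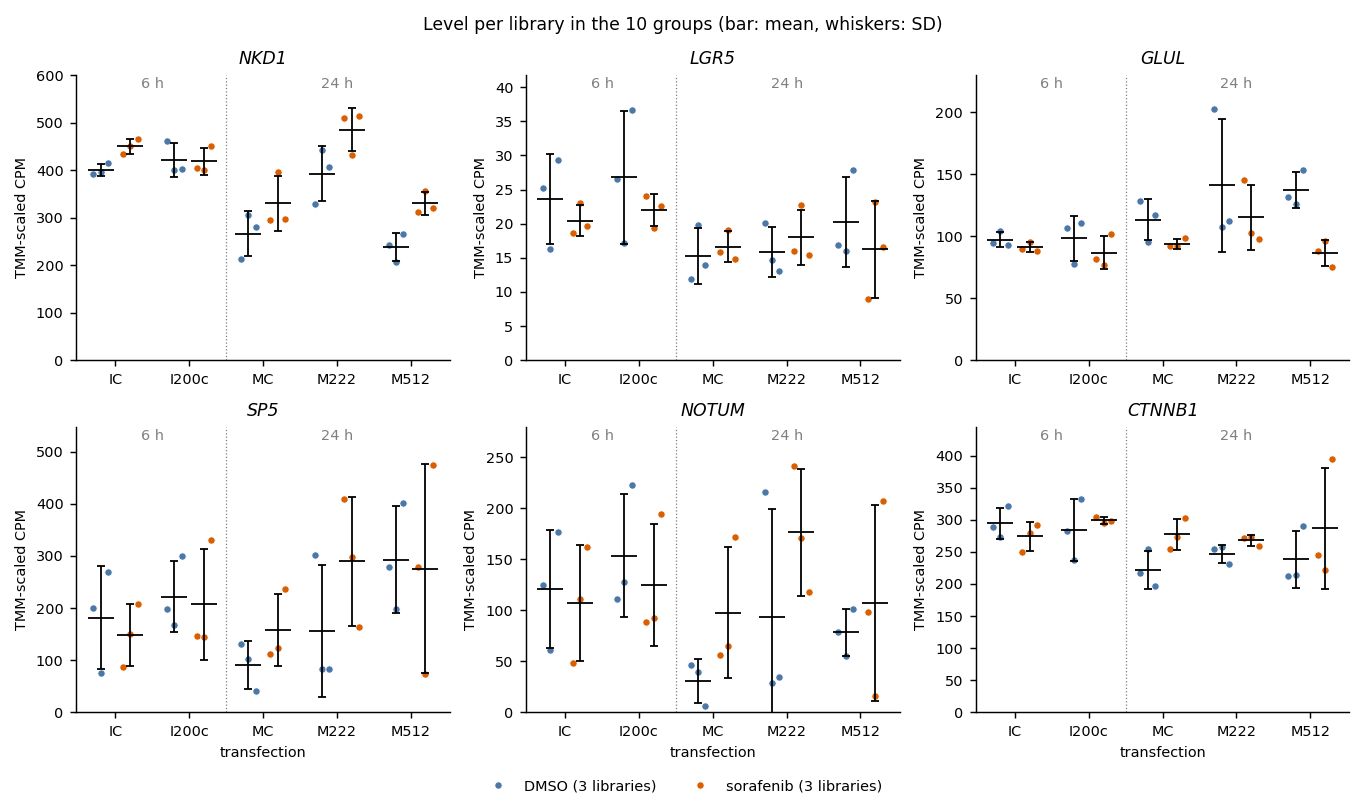
Level of NKD1, LGR5, GLUL, SP5, NOTUM and CTNNB1 in TMM-scaled CPM (vertical axes, from 0) in each library by transfection, with DMSO in blue, sorafenib in orange, and mean and SD as black bars (the lower whisker of NOTUM in M222_DMSO is cut at 0). The libraries of SP5 and NOTUM are spread widely within several groups, NOTUM in MC is higher with sorafenib without overlap, and GLUL in M512 is lower with sorafenib without overlap.

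The second question was whether inhibiting miR-200c-3p or adding miR-222-5p or miR-512-3p changed these genes. By edgeR with the filter on low counts and TMM, none of the 9 members was called for any oligonucleotide compared with its own control. With either treatment, I200c against IC had 0 members with an unadjusted p under 0.05, and edgeR called 0.0157% and 0% of the 12738 genes. M222 against MC had 2 such members in DMSO and 1 in sorafenib, and 0% of 13244 genes were called in both. A fit blocked by replicate called 3 genes in its DMSO comparison and 7 in its sorafenib comparison, and DESeq2 called 33 and 24, none of them a member. M512 against MC had 1 (SP5, 1.68, SE 0.539, adjusted p = 0.191) and 2, with 0.634% and 0.355% of genes called. DESeq2 called no member in the first 5 of these comparisons and 2 in M512 with sorafenib, TBX3 (-0.62, adjusted p = 0.044) and RNF43 (-0.77, adjusted p = 0.0401), for which edgeR gave -0.64 (SE 0.186, adjusted p = 0.131) and -0.78 (SE 0.22, adjusted p = 0.122). In that comparison DESeq2 called 237 of the 13244 genes. With total counts edgeR called TBX3 in M512 with sorafenib as well (-0.76, adjusted p = 0.0455), among 91 genes called. Without the filter on low counts, where the SEs of SP5 and NOTUM were 0.218 to 0.241, edgeR called NOTUM in M222 with DMSO (1.58, adjusted p = 1.34e-06) and SP5 in M222 with sorafenib (0.86, adjusted p = 0.0467). In the same fit M512 had SP5 (1.68, adjusted p = 1.31e-10) and NOTUM (1.355, adjusted p = 1.51e-05) called with DMSO, and SP5 (0.79, adjusted p = 0.0457) with sorafenib. Of the 23336 genes of that fit, edgeR called 47 with DMSO and 46 with sorafenib in M222, and 292 and 169 in M512.

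Of the 3 members with a seed match, NKD1 in M222, printed above, was at 0.54 against MC in DMSO (SE 0.186, edgeR adjusted p = 0.638) and at 0.53 in sorafenib (SE 0.185, adjusted p = 0.636), both above 0. GLUL was at 0.29 and 0.27 there. With the miR-512-3p mimic, NKD1 was at -0.16 and -0.04, GLUL at 0.27 and -0.16 and LGR5 at 0.41 and -0.08 in DMSO and sorafenib. With the miR-200c-3p inhibitor, NKD1 was at 0.08 and -0.09 and GLUL at 0.02 and -0.06. No seed-matched member was called in any of them. Among all genes, edgeR called 0% in both M222 comparisons, 0.0157% and 0% with I200c, and 0.634% and 0.355% with M512. With so few calls of any gene by edgeR, the absence of calls says little of the seed-matched members.

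The interaction of each oligonucleotide with sorafenib, the test of whether it changed the response to the drug, called none of the 9 members by edgeR or DESeq2. The unadjusted p was under 0.05 for 0 members with I200c, 0 with M222 and 1 with M512, and edgeR called 0%, 0% and 0.00755% of all genes. For AXIN2 the interactions were 0.59 with I200c (SE 0.325), -0.15 with M222 (SE 0.416) and 0.45 with M512 (SE 0.416), each added to the response in its control. In DMSO, MC against IC called 0 of 9 members by edgeR, 5 had an unadjusted p under 0.05, DESeq2 called 1, NKD1, and 0.528% of 12500 genes were called by edgeR. DESeq2 called 442 of these genes. NOTUM (-1.96, SE 0.584, adjusted p = 0.118), SP5 (-0.97, SE 0.437, adjusted p = 0.286), LGR5 (-0.62, SE 0.266, adjusted p = 0.262) and CTNNB1 (-0.38, SE 0.142, adjusted p = 0.195) were below 0 in that comparison. Without the filter edgeR called NOTUM (-1.97, SE 0.204, adjusted p = 2.16e-18) and SP5 (-0.98, SE 0.184, adjusted p = 3e-05) beside NKD1, among 573 of 22582 genes called. The smaller SEs of NOTUM and SP5 there came from the same libraries, which were spread widely.

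The order of the 10 groups by mean AXIN2 level placed the 5 DMSO groups first, from M512 (64.9 ± 11.9 CPM, SD, n = 3) to M222 (84.2 ± 22.2 CPM), all overlapping their neighbours. The sorafenib groups followed, from IC (148 ± 9.96 CPM) over I200c (189 ± 25.5 CPM), MC (202 ± 73.7 CPM) and M222 (225 ± 66.7 CPM) to M512 (269 ± 89.8 CPM), and of these only IC and I200c did not overlap as neighbours. Over the 10 group means of log2(CPM + 1), the genes most like AXIN2 among 9740 with a mean of at least 5 CPM were TNFAIP3 (Pearson r 0.981), an inhibitor of NF-kappa-B signalling, the metallothioneins MT1X (0.979) and MT2A (0.979), ENSG00000275993 (0.975) and SLC30A1 (0.973), a zinc exporter. MT2A held 801 to 2953 CPM in the DMSO libraries and 4193 to 16339 CPM in the sorafenib libraries. The other members had r between -0.56 for GLUL and 0.48 for CTNNB1 with AXIN2. These are correlations over 10 group means that share libraries, given as a description.

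Within groups, SP5 and NOTUM deviated together. Over the 30 libraries the deviations from the group mean, on the log2(CPM + 1) scale, had Pearson r 0.965 and Spearman rho 0.952 (both p = 1e-05, permuting libraries within groups, the smallest p that 100000 resamples can give, and adjusted p = 0.00036 over 36 pairs of members). The r was 0.957 over the 12 libraries of 6 h, 0.977 over the 18 of 24 h, and 0.951 without the 2 libraries furthest from the median of SP5. CTNNB1 deviated with SP5 (r 0.674, rho 0.631, permutation p = 0.00139, adjusted p = 0.025) and with NOTUM (r 0.658, rho 0.616, permutation p = 0.00356, adjusted p = 0.0427), and the other 33 pairs had adjusted p above 0.05. Many other genes deviated alongside, since 253 of 9740 (2.6%) reached r 0.8 with NOTUM, and TXN, a thioredoxin, was more like it (0.968) than SP5 was. The deviations of SP5, NOTUM and CTNNB1 also went with the TMM factor of the library (r 0.524, 0.527 and 0.579), and its part in them was not tested. This comparison was chosen after the values were seen.

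**Figure D4:**
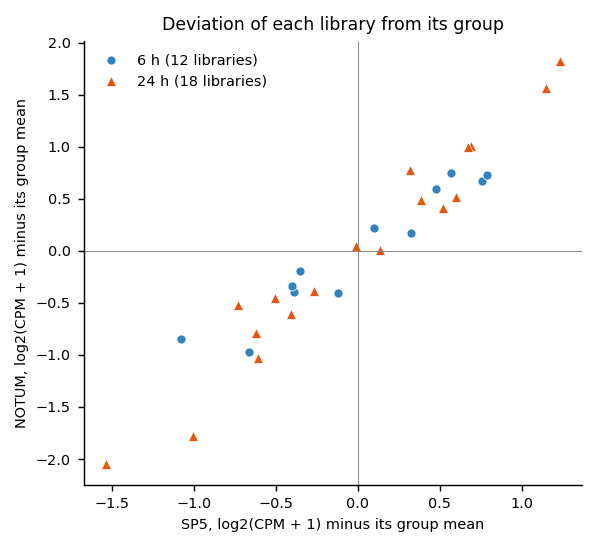
Deviation of each of the 30 libraries from its group mean for SP5 (horizontal axis) and NOTUM (vertical axis), both in log2(CPM + 1), with 6 h libraries as circles and 24 h libraries as triangles. The points of both times lie along 1 line (r 0.965).

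The rest of the pathway was read from 123 genes grouped by role, all of them in the count table. This list too was chosen with earlier results of these data known. In IC, edgeR called 0 of the 69 tested (5 at an unadjusted p under 0.05, 0 by DESeq2), where it called 0.0393% of all genes. It called 3 of 69 in I200c (2 higher, 1 lower), against 2.28% of all genes, and 5 of 71 in MC (4 and 1), against 2.6%. In M222 it called 8 of 71 (6 and 2), against 4.38%, and in M512 14 of 71 (7 and 7), against 9.96%. The median log2 fold change of the list was -0.05, -0.08, 0.01, 0.07 and -0.14 in these 5. Of 25 ligand and secretion genes 3 or fewer were tested and none was called, the most abundant being PORCN, which attaches lipid to Wnt ligands, at a mean of 6.67 CPM.

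Among receptors, FZD4 fell in I200c (log2 fold change -1.27, SE 0.167, edgeR adjusted p = 0.000179), from 143, 125 and 130.3 CPM to 60.3, 43.8 and 61.1 CPM, a call that held in all 6 fits without 1 library. It also fell in M222 (-1.12) and M512 (-0.96). FZD5, the most abundant Frizzled, rose in M512 from 97.9, 82.3 and 108 CPM to 167, 201 and 161 CPM (0.84, SE 0.189, adjusted p = 0.00522), and in MC (0.69) and M222 (0.77). LGR4, another R-spondin receptor, fell in M222 (-0.82) and M512 (-0.87). Of extracellular inhibitors, DKK1, which blocks LRP, fell in M512 from 195, 199.8 and 261 CPM to 74.1, 36.3 and 95.7 CPM (-1.69, SE 0.466, adjusted p = 0.0212). Of these calls, FZD4 in I200c and FZD5 in M512 held in all 6 fits without 1 library, and the others were lost in 3 to 5 of the 6. Those in M222 were lost without M222_DMSO replicate 1 or 3 or M222_sorafenib replicate 1 or 3, and LGR4 also without M222_sorafenib replicate 2. FZD5 in MC was lost without each MC library but MC_sorafenib replicate 2. In M512, FZD4 was lost without M512_DMSO replicate 1 or 3 or M512_sorafenib replicate 2, LGR4 without replicate 2 or 3 of either group, and DKK1 without M512_DMSO replicate 3 or M512_sorafenib replicate 1 or 2. FZD5 in MC was lost as well with total counts, with the size factors of DESeq2 and without the filter (adjusted p up to 0.0889), and LGR4 in M222 without the filter (0.0664).

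Of nuclear partners, TLE1, a co-repressor, and TCF7L2, a main DNA-binding partner of beta-catenin, rose in MC (0.79 and 0.86), M222 (0.86 and 0.84) and M512 (1.201 and 1.18). Both M512 calls held in all 6 fits without 1 library, and those in MC and M222 were lost in 4 of the 6, each without DMSO replicate 1 or 3 or sorafenib replicate 1 or 3 of that transfection. In MC both were also lost with total counts, and TCF7L2 with the size factors of DESeq2 (adjusted p up to 0.0782 for TLE1 and 0.0607 for TCF7L2). PYGO2, a co-activator, fell in M512 (-1.50), and CREBBP, an acetyltransferase, rose in M222 (0.81), a call lost without M222_DMSO replicate 1 or 3 or M222_sorafenib replicate 1 or 3 and with total counts (adjusted p = 0.055). The most abundant nuclear partner, CTNNBIP1, and the most abundant cytoplasmic gene, CSNK1A1, were not called in any sorafenib comparison, while its relative CSNK1E rose in M512 (0.88), a call lost without M512_DMSO replicate 2 or 3 or M512_sorafenib replicate 2 and with total counts (adjusted p = 0.0635). Of other reported targets, JUN, an AP-1 subunit, rose in I200c (0.87, SE 0.183, adjusted p = 0.0131), MC (2.43, SE 0.448, adjusted p = 0.00279), M222 (2.80, SE 0.455, adjusted p = 0.000724) and M512 (3.72, SE 0.473, edgeR adjusted p = 1.91e-05). In M512 it went from 46.4, 30.2 and 53.7 CPM to 641, 689 and 420.5 CPM. The I200c call was lost without I200c_DMSO replicate 1 or I200c_sorafenib replicate 2, with adjusted p up to 0.052. BAMBI, a decoy receptor, rose in M512 (1.90), SOX9 fell there (-0.996, lost without replicate 2 or 3 of either M512 group), and CCND1, the cyclin D1 gene and the most abundant of this class, was not called.

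Liver zonation genes were called in both directions. Of pericentral genes, RHBG, an ammonium transporter, rose in I200c (0.88, SE 0.168, edgeR adjusted p = 0.00643), while SLC1A2, a glutamate transporter, fell in MC (-2.54, SE 0.663, adjusted p = 0.0375) and M512 (-2.94, SE 0.673, adjusted p = 0.00585) and SLC13A3, a dicarboxylate transporter, fell in M512 (-2.67, SE 0.397, adjusted p = 9.05e-05). AHR, a ligand-activated factor, rose in M512 (1.13). In MC the SLC1A2 call needed MC_DMSO replicates 1 and 3 and MC_sorafenib replicates 1 and 3, with adjusted p up to 0.122 without 1 of them. Of periportal genes, SLC7A2, a cationic amino acid transporter, rose in M222 (1.14), a call lost without M222_DMSO replicate 3 or M222_sorafenib replicate 1, and no other was called with sorafenib. In the test of 24 h against 6 h, 11 of 74 genes of the list were called, 5 higher and 6 lower, among them JUN (2.21) and RHBG (-1.19), where 9.4% of all genes were called, 5.34% higher and 4.06% lower.

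**Figure D5:**
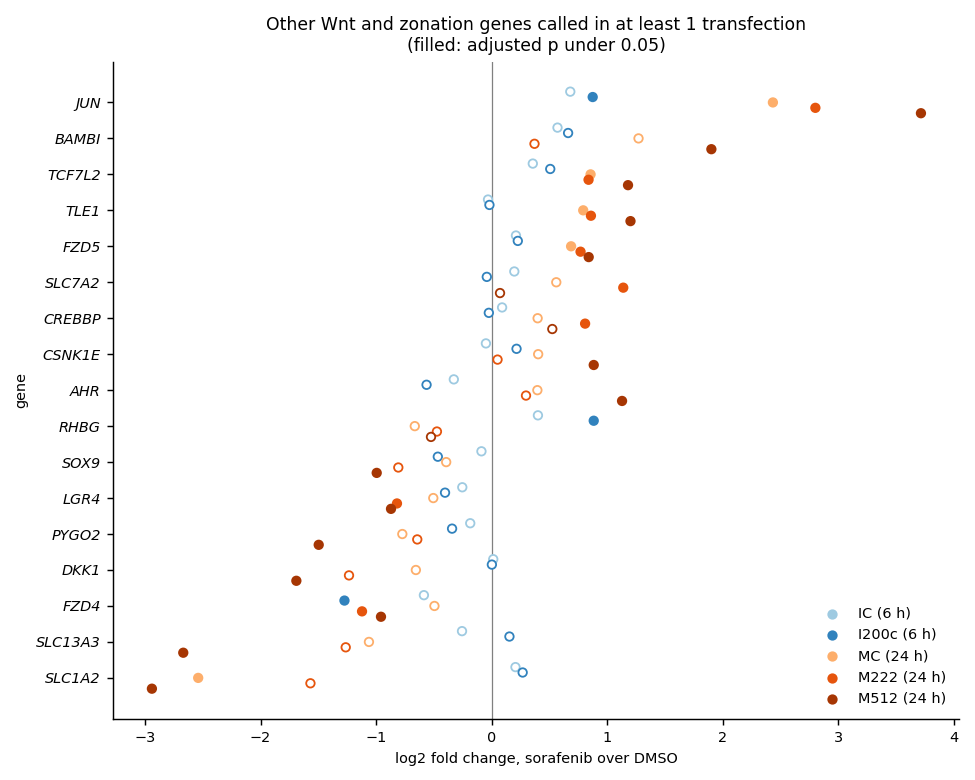
Log2 fold change of sorafenib over DMSO (horizontal axis) in the 5 transfections for the 17 other Wnt and zonation genes called in at least 1 of them (vertical axis, sorted by mean), filled where the edgeR adjusted p was under 0.05. JUN is highest, reaching 3.72 in M512, and SLC1A2 and SLC13A3 are lowest.

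The cultures of 24 h also differed from their DMSO controls in general stress genes. The summed level of ATF3, DDIT3 and TRIB3 was 67.4 to 149 CPM in the 9 DMSO libraries of 24 h and 242 to 505 CPM (504.5 before rounding) in the 9 sorafenib libraries. At 6 h it was 73.7 to 141 CPM with DMSO and 93.1 to 158 CPM with sorafenib. DDIT3 alone, a stress-induced transcription factor, did not overlap at 6 h, at 11.5 to 20.7 CPM with DMSO and 28.9 to 31.2 CPM with sorafenib in IC (log2 fold change 0.99, SE 0.25, edgeR adjusted p = 0.259, not called). In I200c DDIT3 rose from 7.93 to 12.05 CPM with DMSO to 27.3 to 37.9 CPM with sorafenib (1.70, SE 0.25, edgeR adjusted p = 0.000627), while TRIB3, which makes up most of the sum, was at -0.62 (adjusted p = 0.23, not called). The summed hepatocyte markers in M512 were 15990 to 17050 CPM with DMSO and 9483 to 11020 CPM with sorafenib, and the sorafenib libraries were also the lower ones in MC and M222. At 24 h these values went with the lower RNF43 of M222 and M512, the lower GLUL of M512 and the higher JUN of all 3 transfections, and their part in those results was not tested.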

How the data were processed

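RNA of 30 HepG2 cultures was sequenced from its 3′ ends (QuantSeq 3′ FWD libraries). The authors aligned reads to GRCh38 with STAR and deposited HTSeq counts per gene, not normalized. DRAGEN and DESeq2 also stand in the submitters' processing notes. The versions of STAR, HTSeq and DESeq2, the annotation release and the use of strand and of molecular identifiers are not given in the sources used here. The 92 lines naming no gene held 3 counts and were left out. Symbols came from GENCODE release 44 (56104 identifiers matched). Groups came from the sample labels.

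In R 4.3.3, edgeR 4.0.16 gave a quasi-likelihood F test of the counts (TMM factors, genes kept by filterByExpr, 1 coefficient per group, Benjamini-Hochberg adjustment over all genes tested, call at adjusted p under 0.05), in separate fits of 12 libraries at 6 h, 18 at 24 h and 12 control libraries. A fit of all 30 libraries for 24 h against 6 h, the sorafenib interaction between the controls and the correlations between members were added after the values were seen. The SE is the log2 fold change divided by the square root of F. Counting limits cover counting error only. DESeq2 1.42.0, its size factors, total counts, no filter, a replicate block and fits without each library were the alternatives, and the code was tested on simulated data. Whether replicate numbers pair libraries was checked by correlating, across genes, the deviations of same-numbered libraries from their group means. All 3 such pairs of M222 and MC in DMSO were over 0.1 (0.182 to 0.189), and in no other pair of groups were all 3. All 10 members are described, and other genes are named where called with sorafenib, most abundant in their role or most like a member. The members and lists were chosen with earlier results of these data known.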

Additional observations from a re-analysis of the deposited data

Results flagged for a closer look

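The response to sorafenib of RNF43, a membrane ubiquitin ligase, and of TBX3, a T-box factor, differed between the cultures of 6 h and those of 24 h by a test of the difference itself. The mean log2 fold change at 24 h minus that at 6 h was -1.344 for RNF43 (SE 0.179, edgeR adjusted p = 4.94e-06) and -0.8068 for TBX3 (SE 0.139, edgeR adjusted p = 0.000216). The test was added after the values were seen, and it called 9.4% of the 13800 genes tested. Between the controls MC and IC alone edgeR called neither (RNF43 adjusted p = 0.108, TBX3 adjusted p = 0.298), while DESeq2 called RNF43 (adjusted p = 0.0249). The 24 h mean takes in both mimics and the 6 h mean the inhibitor. TBX3 was at 0.09 in MC and -0.53 in M512. Treatment time and control oligonucleotide cannot be told apart in this difference.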

How the results depend on the processing

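Of 2115 values of member fold changes under alternatives, 20 lost a call, 32 gained one and none of the called values changed sign, while 113 uncalled values did.
By DESeq2, members called became 2 in IC, 2 in M512 against MC in sorafenib, 1 in MC against IC in DMSO and 1 in its interaction with sorafenib. Without the filter on low counts they became 1 in IC, 3 in MC, 4 in M222, 1 in M222 against MC in each treatment, 2 and 1 in M512 against MC in DMSO and sorafenib, 3 in MC against IC in DMSO, 3 in its interaction and 4 in 24 h against 6 h. With total counts, M512 against MC in sorafenib called 1.
Of the other Wnt and zonation genes, DESeq2 called 5 in I200c, 2 in M512 against MC in each treatment, 1 in MC against IC in DMSO and 2 in its interaction with sorafenib. Smaller moves of the counts are otherwise left out of these lists. By DESeq2 they were 5 to 7 of these genes in MC, 8 to 12 in M222, 14 to 18 in M512 and 11 to 14 in 24 h against 6 h, and 3 to 4 members in M512. No filter gave 1 in IC, 13 in M222, 5 in M512 against MC in DMSO, 1 in the M512 interaction and 5 in MC against IC in DMSO. DESeq2 size factors and total counts each gave 3 in MC, and total counts 1 in M512 against MC in sorafenib.
Without 1 library, members called ranged from 0 to 1 in IC, 1 to 3 in I200c, 0 to 2 in M222 and 0 to 1 in MC against IC in DMSO. The other genes ranged from 1 to 8 in MC, 1 to 9 in M222, 9 to 14 in M512, 0 to 1 in M512 against MC in DMSO and 0 to 2 in MC against IC in DMSO. In MC and M222 the calls of TLE1 and TCF7L2 were lost without replicate 1 or 3 of either group and held without replicate 2. In both transfections replicate 2 had the highest DMSO level and the lowest sorafenib level of AXIN2 and of DDIT3. Whether a replicate number stands for a shared culture is not stated. The causes were not tested.
Same-numbered libraries correlated at -0.142 to 0.222 over 45 pairs at 24 h, where 24 correlated best with their own number among 3. At 6 h they correlated at -0.0861 to 0.252 over 18 pairs, where 9 did. For sorafenib at 24 h, the replicate block took the calls among all genes from 344 to 470 in MC, 580 to 748 in M222 and 1319 to 1520 in M512. At 6 h it took them from 5 to 2 in IC and from 291 to 310 in I200c. M222 and MC in DMSO was the sole comparison with all 3 pairs over 0.1 (0.182 to 0.189, each best with its own number), and the replicate block called no member there. With the replicate block, TBX3 in M512 was called (-0.54, edgeR adjusted p = 0.0357) and 1 of the other genes was called in M512 against MC in DMSO.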
